A study of Mus musculus with 12 samples.

Results

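Axin2, Nkd1, Notum, Apcdd1, Lgr5, Tnfrsf19, Lef1, Tcf7, Sp5 and Sp8 are known as direct feedback targets of canonical Wnt signalling, and these 10 genes were followed by their gene symbols in an Illumina bead-array study of the mouse epiblast, the embryonic layer that gives rise to the body of the embryo. Of these 10 genes, 8 had a named probe on the array and all 8 had at least 1 detected probe, among 11124 genes tested in all; Nkd1 and Tcf7 had no probe named in the sources used here and were not analysed here. A probe counted as detected where its detection p was under 0.05 on at least 3 of the 12 arrays. By symbol the probe table named 12 probes for the 8 genes, of which 10 were detected; a further Apcdd1 probe, listed there under an older name, was matched by its accession and brought the detected probes to 11. The 2 probes not detected on any array were both for Lef1.

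The 12 arrays came from epiblast of mouse embryos at stage E7.75, with 3 arrays in each of 4 groups: posterior epiblast of Dkk-/- embryos (knockout), posterior epiblast of Dkk+/+ embryos (control), anterior epiblast of Dkk-/- embryos and anterior epiblast of Dkk+/+ embryos. Codes given with the samples name Dkk1, a secreted Wnt antagonist, and the series title places the study in the question of how Wnt activity bears on the formation of the embryonic head. A collection note in the labels speaks of more genotypes than these but names no other. The labels give neither the deleted allele, nor the strain, nor whether an array holds 1 embryo or a pool, and the sample codes share a number between the regions without saying that both came from 1 embryo. The p-values therefore measure the spread between these samples, which may be partly technical.

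In canonical Wnt signalling a secreted Wnt ligand binds Frizzled and Lrp5/6 at the cell surface, the complex that degrades beta-catenin is disabled, and beta-catenin enters the nucleus and works with transcription factors of the TCF/LEF family. DKK proteins block the pathway by binding Lrp5/6. Many direct targets act back on the pathway: some restrain it, as Axin2, Nkd1, Notum and Apcdd1 do, and others, such as Lef1, Tcf7, Sp5 and Sp8, work in the nucleus. In the gastrulating mouse embryo Wnt activity is known to be high in the posterior, at the primitive streak, and low in the anterior, where Wnt inhibitors are needed for head formation.

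The regions before the start sites of Sp5 and Axin2 are shown because these were the members that passed the test between genotypes. They are RefSeq sequences of build GRCm38.p6, from 250 bases before to 50 bases after an annotated start, 5′ to 3′ on the plus strand, at chr2:70474673-70474972 for Sp5 and chr11:108920099-108920398 for Axin2. Capitals mark CTTTG, the core of the TCF/LEF recognition sequence, on either strand.
Sp5: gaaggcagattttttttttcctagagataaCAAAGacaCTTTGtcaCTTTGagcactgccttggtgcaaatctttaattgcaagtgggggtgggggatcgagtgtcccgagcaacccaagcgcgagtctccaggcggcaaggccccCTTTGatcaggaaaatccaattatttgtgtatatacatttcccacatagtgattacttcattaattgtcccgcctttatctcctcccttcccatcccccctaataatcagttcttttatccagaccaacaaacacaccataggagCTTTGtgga
Axin2: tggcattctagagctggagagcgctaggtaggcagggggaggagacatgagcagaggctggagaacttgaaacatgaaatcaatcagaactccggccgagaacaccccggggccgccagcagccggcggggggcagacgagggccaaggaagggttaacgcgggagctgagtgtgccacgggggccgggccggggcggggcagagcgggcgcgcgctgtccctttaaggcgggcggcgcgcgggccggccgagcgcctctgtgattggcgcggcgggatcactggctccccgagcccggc
The Sp5 window held 5 matches to CTTTG, 1 of them on the minus strand (printed as CAAAG), and 4 lay before the start, from base -220 to base -100. Among 32851 promoter windows of this length, the median held 1 match, and 0.286% held at least as many as Sp5. One of the Sp5 matches extended to CTTTGAT, from base -104 to base -98. The longer forms CTTTGAA or CTTTGAT, on either strand, occurred in 8.65% of all windows and in 3 of the 14 windows of the 7 members with an entry: the window of Sp5, 1 of 3 of Sp8 and 1 of 2 of Tnfrsf19. The Axin2 window held no match to CTTTG; it lies at an inner annotated start, within the gene, which begins at base 108917828, whereas the Sp5 window lies at the start of its gene. Windows of Lef1, Nkd1 and Tcf7 held neither longer form, and Notum, Lgr5 and Apcdd1 were not among the entries matched. These letters are a description of the sequence and do not show binding, and the windows and the motif were chosen after the values were seen.

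Before normalization the mean intensity was 189 on array 2 of the posterior knockout group and between 301 and 693 on the other 11 arrays, and 36.2% to 42.3% of 46237 probes were detected per array. All levels below are log2 intensities after background correction and quantile normalization, a difference of 1 is a 2-fold difference, and a level is comparable between arrays but not between probes. Dkk1 itself had levels of 5.9995, 6.27 and 6.17 in anterior knockout arrays, against 6.10, 5.78 and 6.06 in anterior control arrays, and was detected on all of these 6 arrays. In the posterior it was detected on 0 of 3 knockout arrays and 2 of 3 control arrays. The anterior difference in Dkk1 was 0.17 ± 0.17 (SE; limma, adjusted p = 0.83), so the Dkk1 probe neither bears out nor contradicts the genotype labels; its place relative to the deletion is unknown here. Of 10 epiblast markers 9 were detected, and of 12 visceral endoderm markers, including Afp and Ttr, 12 were, so transcripts typical of visceral endoderm were measured together with those of the epiblast.

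In anterior epiblast 2 feedback targets were higher in knockout than in control arrays, and most of the others had higher means. Sp5, a zinc-finger transcription factor, was 2.28-fold higher and Axin2, a scaffold of the beta-catenin destruction complex, was 1.57-fold higher; these 2 of the 8 passed the test (limma, Benjamini-Hochberg adjusted p under 0.05 over all 11124 genes) and none was lower. Over all genes, 0.324% were called higher and 0.18% lower in this comparison. The median difference of the 8 members was 0.64, against 0.0043 over all genes, and 7 of the 8 members had a positive difference, against 50.9% of all genes. For Sp5, Axin2, Notum, Sp8, Tnfrsf19 and Lef1 the 3 knockout arrays lay above all 3 control arrays, and for Apcdd1 and Lgr5 the groups overlapped. Of these genes only Sp5 and Axin2 passed the test. The share of all genes whose arrays lay apart in this way was not counted. In posterior epiblast no member was called, and over all genes 0% were called higher and 0% lower.

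**Figure D1:**
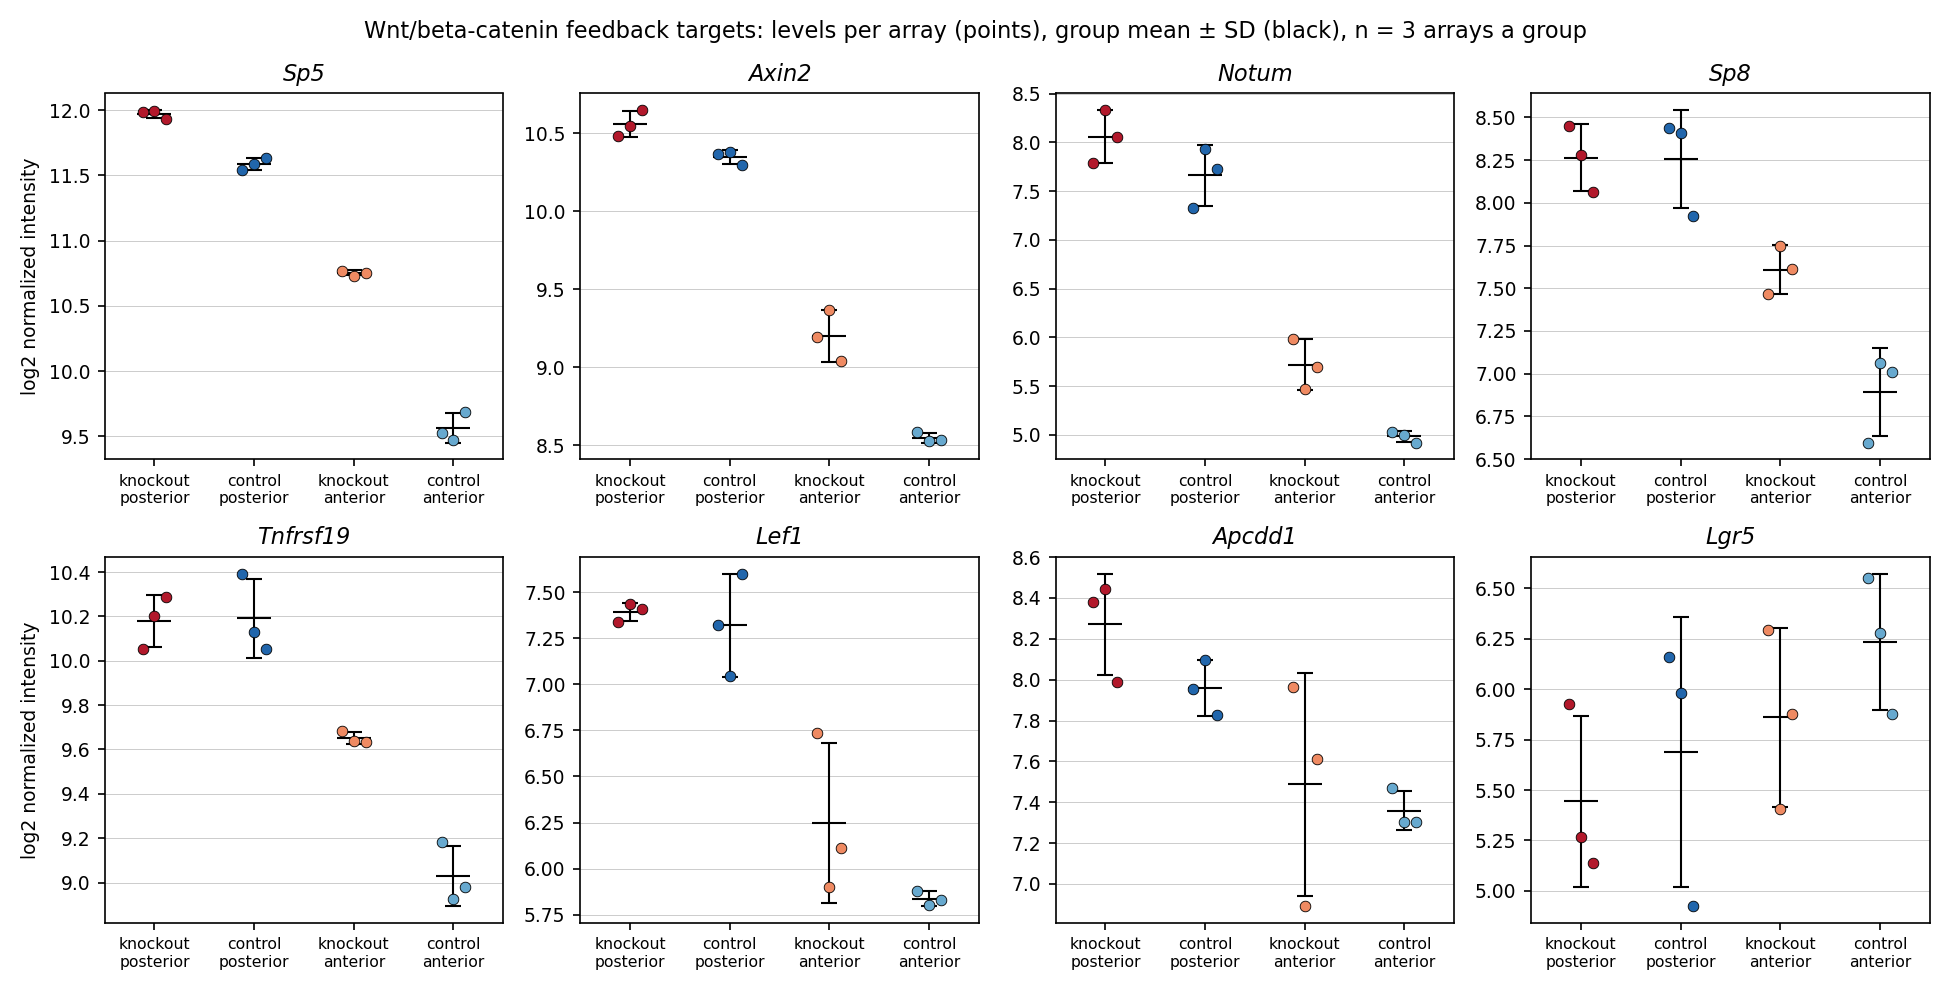
Levels of the 8 feedback targets on each array, as log2 normalized intensity (vertical axis, a range of its own for each gene and not starting at 0), in posterior knockout, posterior control, anterior knockout and anterior control epiblast. Points are arrays and black marks are group means ± SD (n = 3); Sp5 and Axin2 fall into 4 levels that do not overlap, while the Lgr5 groups overlap throughout.

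Axin2 and Notum encode inhibitors of the pathway, Axin2 inside the cell and Notum as a secreted enzyme that removes the lipid Wnt ligands need. Axin2 had levels of 10.48, 10.55 and 10.65 in posterior knockout arrays, against 10.37, 10.38 and 10.30 in posterior control arrays. It had levels of 9.19, 9.37 and 9.04 in anterior knockout arrays, against 8.59, 8.53 and 8.53 in anterior control arrays. The 2 genotypes did not overlap in either region, and every posterior array was above every anterior array. The genotype difference in Axin2 was 0.21 ± 0.12 in the posterior (SE; limma, adjusted p = 0.57) and 0.65 ± 0.12 in the anterior (adjusted p = 0.032). The anterior call for Axin2 was not stable: in 13 of 26 other settings the adjusted p passed 0.05 (range 0.0023 to 0.18), the difference staying between 0.55 and 0.73. Leaving out any 1 array other than posterior knockout arrays 1 and 2 and anterior knockout array 3 ended the call, with adjusted p of 0.050 to 0.18.

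Notum had levels of 7.79, 8.33 and 8.06 in posterior knockout arrays, against 7.33, 7.94 and 7.73 in posterior control arrays. It had levels of 5.99, 5.47 and 5.70 in anterior knockout arrays, against 5.03, 4.999 and 4.92 in anterior control arrays, where 2 of 3 arrays detected it. The genotypes were apart in the anterior and overlapped in the posterior. The difference was 0.40 ± 0.19 in the posterior (SE; limma, adjusted p = 0.52) and 0.73 ± 0.19 in the anterior (adjusted p = 0.16), and neither passed the test. The dimmer Notum probe was detected in neither anterior group. In the posterior it had levels of 5.53, 5.59 and 5.99 in knockout arrays, against 4.69, 5.23 and 5.13 in control arrays, with no overlap between the genotypes. Of the posterior control arrays 2 of 3 detected it. Its posterior difference was 0.69 ± 0.17 (SE; limma over all detected probes, unadjusted p = 0.0016, adjusted p = 0.30).

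Apcdd1, a membrane-bound inhibitor that binds Wnt ligands, gave different patterns on its 2 probes. The brighter probe had levels of 8.38, 8.44 and 7.99 in posterior knockout arrays, against 7.95, 8.10 and 7.83 in posterior control arrays. In the anterior the brighter probe had 7.96, 6.89 and 7.61 in knockout arrays, against 7.47, 7.30 and 7.30 in control arrays, and the anterior knockout arrays spread more widely than any other group of Apcdd1. Its genotype differences were 0.31 ± 0.22 in the posterior (SE; limma, adjusted p = 0.67) and 0.13 ± 0.22 in the anterior (adjusted p = 0.92). The dimmer Apcdd1 probe had levels of 6.46, 7.14 and 6.83 in anterior knockout arrays, against 5.73, 5.82 and 5.66 in anterior control arrays, with no overlap. Its anterior difference was 1.08 ± 0.22 (SE; limma over all 21051 detected probes, adjusted p = 0.070). In the posterior the dimmer probe overlapped between genotypes, with means of 6.19 in knockout arrays and 6.11 in control arrays.

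Lgr5 and Tnfrsf19 encode receptors. Lgr5 binds R-spondins, which strengthen Wnt signalling, and Tnfrsf19 (also called TROY) is a member of the tumour necrosis factor receptor family. Lgr5 had levels of 5.93, 5.27 and 5.14 in posterior knockout arrays, against 6.16, 5.98 and 4.92 in posterior control arrays. It had levels of 6.29, 5.41 and 5.88 in anterior knockout arrays, against 6.55, 6.28 and 5.88 in anterior control arrays. All Lgr5 groups overlapped, with the SD within groups between 0.34 and 0.67. Lgr5 was the 1 member with a lower mean in knockout arrays in both regions, by -0.24 (95% interval -0.95 to 0.47) in the posterior and -0.38 (interval -1.09 to 0.33) in the anterior, and neither difference passed the test.

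Tnfrsf19 had levels of 10.06, 10.20 and 10.29 in posterior knockout arrays, against 10.39, 10.13 and 10.05 in posterior control arrays. It had levels of 9.68, 9.64 and 9.63 in anterior knockout arrays, against 9.18, 8.92 and 8.98 in anterior control arrays. The genotypes overlapped in the posterior and were apart in the anterior. The posterior difference was -0.0094, with a 95% interval of -0.29 to 0.28, and the anterior difference 0.62 ± 0.13 (SE; limma, adjusted p = 0.069). The anterior difference in Tnfrsf19 passed the test in 5 of 26 other settings. The dimmer Tnfrsf19 probe was detected on 2 of 3 posterior knockout arrays and 3 of 3 posterior control arrays. In the anterior it was detected on 1 of 3 knockout arrays and 0 of 3 control arrays. Its anterior difference, mostly between undetected values, was 0.36 ± 0.28 (SE, limma over all detected probes, adjusted p = 0.79).

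**Figure D2:**
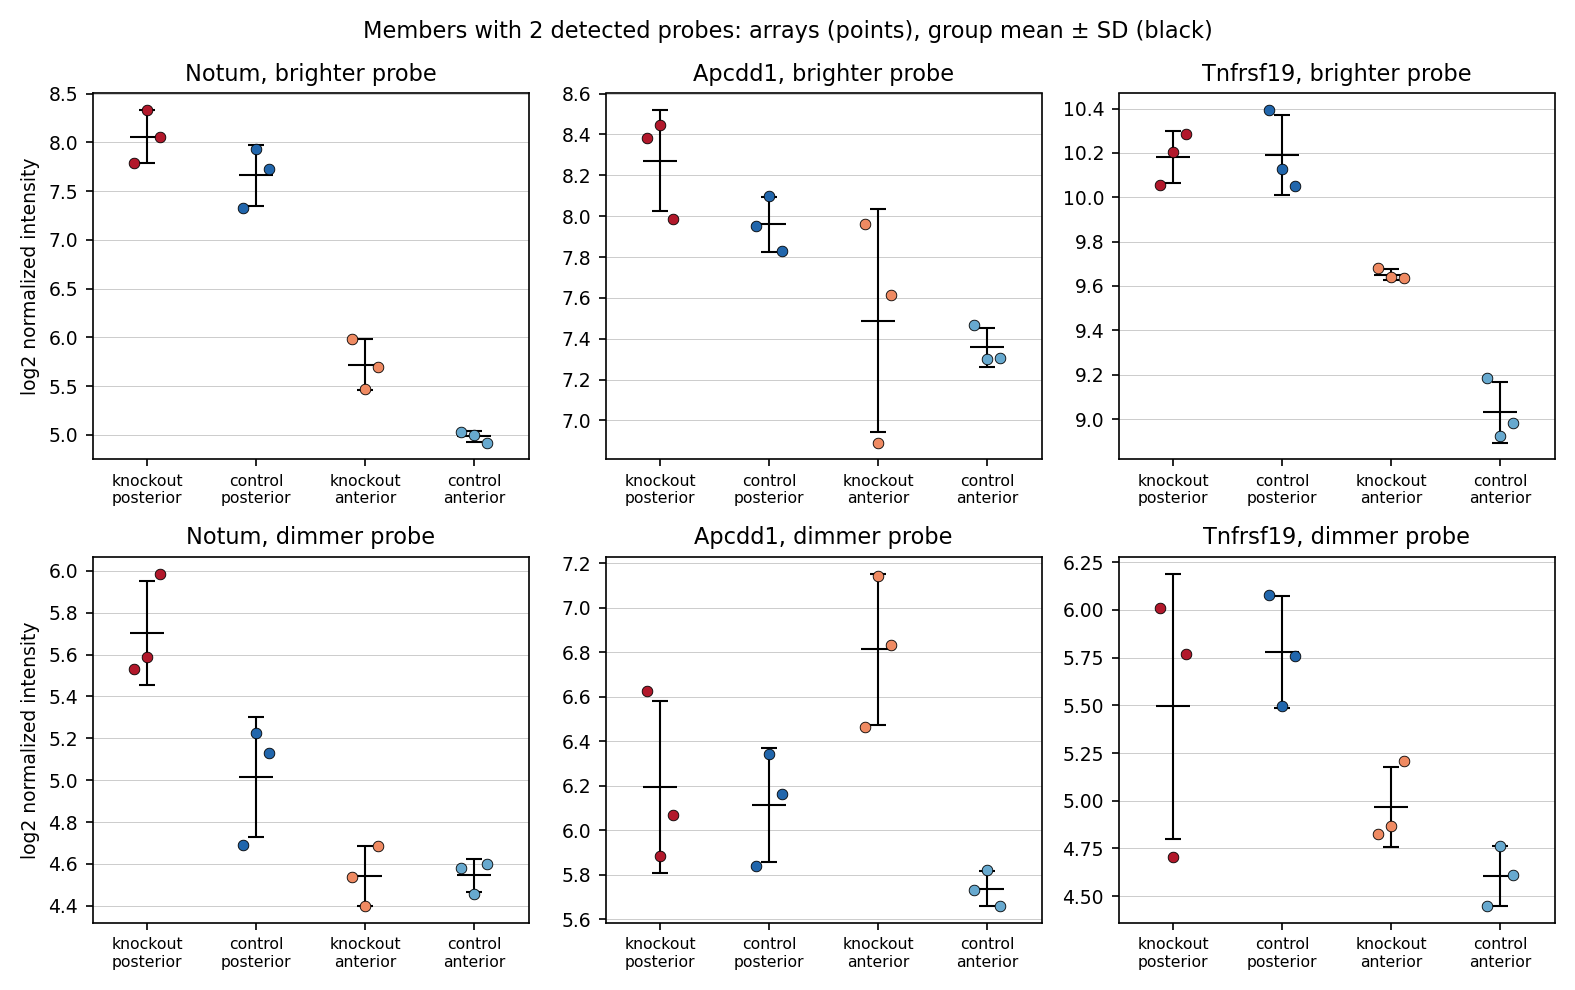
Levels of Notum, Apcdd1 and Tnfrsf19 on their brighter probe (top) and dimmer probe (bottom), as log2 normalized intensity, by group; points are arrays, black marks are means ± SD (n = 3), and the vertical axes do not start at 0. The brighter Apcdd1 probe averaged 7.49 in anterior knockout arrays and 7.36 in anterior control arrays, and the dimmer one 6.81 in anterior knockout arrays and 5.74 in anterior control arrays.

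The transcription factors were Sp5, Sp8 and Lef1. Sp5 had levels of 11.99, 11.99 and 11.93 in posterior knockout arrays, against 11.54, 11.59 and 11.63 in posterior control arrays. It had levels of 10.77, 10.73 and 10.75 in anterior knockout arrays, against 9.53, 9.48 and 9.69 in anterior control arrays. The 4 groups of Sp5 did not overlap, and their SDs, between 0.019 and 0.11, were small beside the distances between them. The genotype difference was 0.38 ± 0.11 in the posterior (SE; limma, adjusted p = 0.33) and 1.19 ± 0.11 in the anterior (adjusted p = 4.7e-04), where Sp5 ranked 2 of 11124 genes by p. The anterior call for Sp5 held in 26 of 26 other settings, with adjusted p of at most 0.019.

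Sp8, a relative of Sp5, had levels of 8.45, 8.28 and 8.06 in posterior knockout arrays, against 8.44, 8.41 and 7.93 in posterior control arrays. It had levels of 7.46, 7.748 and 7.61 in anterior knockout arrays, against 6.596, 7.07 and 7.01 in anterior control arrays. The posterior groups overlapped, with a difference of 0.0082 (95% interval -0.38 to 0.39), and the anterior groups were apart by 0.72 ± 0.18 (SE; limma, adjusted p = 0.15). Lef1, one of the TCF/LEF factors that carry beta-catenin to DNA, had levels of 7.34, 7.43 and 7.41 in posterior knockout arrays, against 7.32, 7.04 and 7.60 in posterior control arrays. In the anterior Lef1 had 6.74, 5.90 and 6.11 in knockout arrays, against 5.88, 5.80 and 5.83 in control arrays. For Lef1 anterior knockout array 1 stood above the other 2, the lowest of which was close to the highest control array. The Lef1 difference was 0.073 ± 0.20 in the posterior (adjusted p = 0.93) and 0.41 ± 0.20 in the anterior (adjusted p = 0.57). Without anterior knockout array 1 the anterior Lef1 difference was 0.17 (adjusted p = 0.79).

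**Figure D3:**
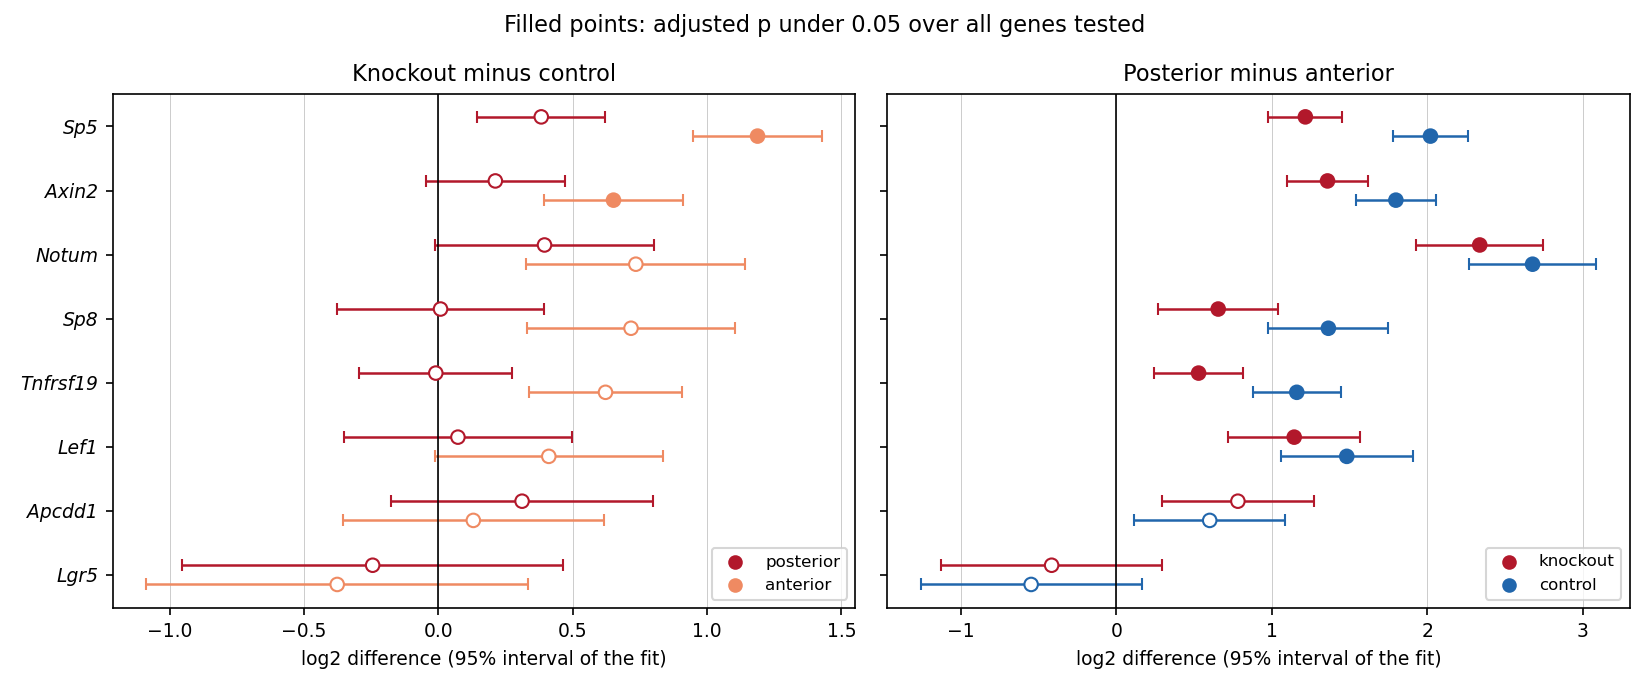
Log2 differences of the 8 feedback targets, knockout minus control in each region (left) and posterior minus anterior in each genotype (right), with 95% intervals of the limma fit; filled points had an adjusted p under 0.05 over all genes tested. On the left the filled points are the anterior differences of Sp5 (1.19) and Axin2 (0.65), and on the right 6 genes are filled in each genotype.

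In the posterior comparison of genotypes the median difference of the 8 members was 0.14, against -0.022 over all genes, and 6 of the 8 were positive, against 45.9% of all genes. Of the members, each on its brightest probe, Sp5 had an unadjusted p under 0.05, as did 1104 of the 11124 genes (limma). No member was called in any of 26 other settings. Among the dimmer probes that of Notum also had an unadjusted p under 0.05 (limma over all detected probes), as given above. Averaged over both regions, Sp5 differed between genotypes by 0.79 ± 0.078 (SE; limma, adjusted p = 0.0019), where it ranked 1 of 11124 genes, and Axin2 by 0.43 ± 0.085 (adjusted p = 0.045). In this averaged comparison 0.252% of all genes were called higher and 0.261% lower. The averaged Axin2 call was lost in 15 of 25 other settings, among them leaving out any 1 array except posterior knockout array 1 (adjusted p of 0.051 to 0.13 without the others).

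Most of the feedback targets differed between regions in both genotypes. In knockout epiblast 6 of the 8 members were higher in posterior than in anterior arrays, and none was lower, where 3.56% of all genes were called higher and 4.31% lower. In control epiblast 6 of the 8 were again higher and none lower, where 2.69% of all genes were called higher and 2.29% lower. The 6 were Notum, Axin2, Sp5, Lef1, Sp8 and Tnfrsf19 in both genotypes. The median posterior minus anterior difference of the 8 members was 0.96 in knockout epiblast and 1.42 in control epiblast, against -0.011 in knockout and 0.0089 in control epiblast over all genes.

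Notum had the largest regional difference among the members, at 2.34 ± 0.19 in knockout epiblast (SE; limma, adjusted p = 7.4e-06) and 2.68 ± 0.19 in control epiblast (adjusted p = 1.3e-06). Axin2 differed by 1.36 ± 0.12 in knockout epiblast (adjusted p = 1.4e-05) and by 1.80 ± 0.12 in control epiblast (adjusted p = 8.0e-07). Sp5 was 2.32-fold higher in posterior than anterior knockout arrays and 4.06-fold higher in posterior than anterior control arrays, and Lef1 was 2.21-fold higher in the posterior of knockout and 2.80-fold higher in that of control epiblast. These 4 genes held their calls in all 26 other settings in each genotype.

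Sp8 and Tnfrsf19 passed the test between regions in both genotypes, but their calls in knockout epiblast depended on the setting. Sp8 differed by 0.66 ± 0.18 in knockout epiblast (SE; limma, adjusted p = 0.041) and by 1.36 ± 0.18 in control epiblast (adjusted p = 3.8e-04). Tnfrsf19 differed by 0.53 ± 0.13 in knockout epiblast (adjusted p = 0.028) and by 1.16 ± 0.13 in control epiblast (adjusted p = 1.1e-04). In knockout epiblast the Sp8 call was lost in 14 of 26 other settings, 8 of them the omission of 1 array: posterior knockout 1 or 2, posterior control 1 or 2, any anterior knockout array, or anterior control 2 (adjusted p of 0.052 to 0.11). The Tnfrsf19 call was lost in 8 of 26, 5 of them the omission of posterior knockout array 2 or 3 or of any anterior knockout array (adjusted p of 0.058 to 0.090). Without posterior knockout array 2, the array with the lowest intensity, 4 members were called between regions in knockout epiblast and 1 in the average over regions, and the counts in the other 4 comparisons stayed at their values. Of all genes 612 were then called between regions in knockout epiblast, against 876 with all arrays, and 35 in the average, against 57. On its dimmer probe Tnfrsf19 was at least 1.89-fold higher in posterior than anterior control arrays. That probe passed the detection filter through posterior arrays, so its regional difference is no separate support.

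Apcdd1 and Lgr5 did not pass the test between regions. On the brighter probe the Apcdd1 regions did not overlap in either genotype, with differences of 0.78 ± 0.22 in knockout epiblast (SE; limma, adjusted p = 0.051) and 0.60 ± 0.22 in control epiblast (adjusted p = 0.18). It passed the test in 8 of 26 other settings in knockout epiblast, where the difference ranged from 0.081 to 1.02 over all 26, and in 3 of 26 in control epiblast. On the dimmer Apcdd1 probe the regional difference was -0.62 in knockout epiblast (adjusted p = 0.12) and 0.38 in control epiblast (adjusted p = 0.49), so the probes had opposite signs in knockout epiblast. Lgr5 had lower means in posterior arrays, by -0.42 (95% interval -1.13 to 0.29) in knockout epiblast and -0.55 (interval -1.26 to 0.16) in control epiblast. The dimmer Notum probe was detected on 3 of 3 posterior knockout arrays, 2 of 3 posterior control arrays and no anterior array. It thus passed the detection filter through posterior arrays alone, so its regional difference is no separate support. Its posterior knockout level was at least 1.74-fold the anterior one.

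Whether the genotype difference itself differed between regions was tested as the posterior genotype difference minus the anterior one, which uses all 4 groups. None of the 8 members was called in this test (limma), and over all genes 0% were called higher and 0.00899% lower. Of the members 4 (Sp5, Tnfrsf19, Sp8 and Axin2) had an unadjusted p under 0.05, as did 685 of the 11124 genes. The largest value among them was that of Sp5, -0.80 ± 0.16 (SE; adjusted p = 0.18), and Sp5 passed the test in 4 of 25 other settings. Sp8 had -0.71, Tnfrsf19 -0.63 and Axin2 -0.44, and 6 of the 8 members had a negative value, against 53.6% of all genes. Negative values were not particular to the members. They were also found for 16 of 21 other Wnt-responsive genes and 10 of 10 primitive streak markers, lists described below that share genes. The median was -0.39 for the members, -0.28 for the Wnt-responsive genes and -0.64 for the streak markers, against -0.023 over all genes. No gene of these lists was called. The regional and genotype comparisons above share arrays, the anterior control arrays among them, so they are not independent descriptions of this pattern. These counts rest on the brightest probe of each gene. On the dimmer probes (limma over all detected probes) Apcdd1 had -0.997 (unadjusted p = 0.0063, adjusted p = 0.78), against 0.18 on its brighter probe. The dimmer Notum probe had 0.69 (unadjusted p = 0.014, adjusted p = 0.87), against -0.34 on the brighter, and the dimmer Tnfrsf19 probe had -0.64 (adjusted p = 0.93).

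**Figure D4:**
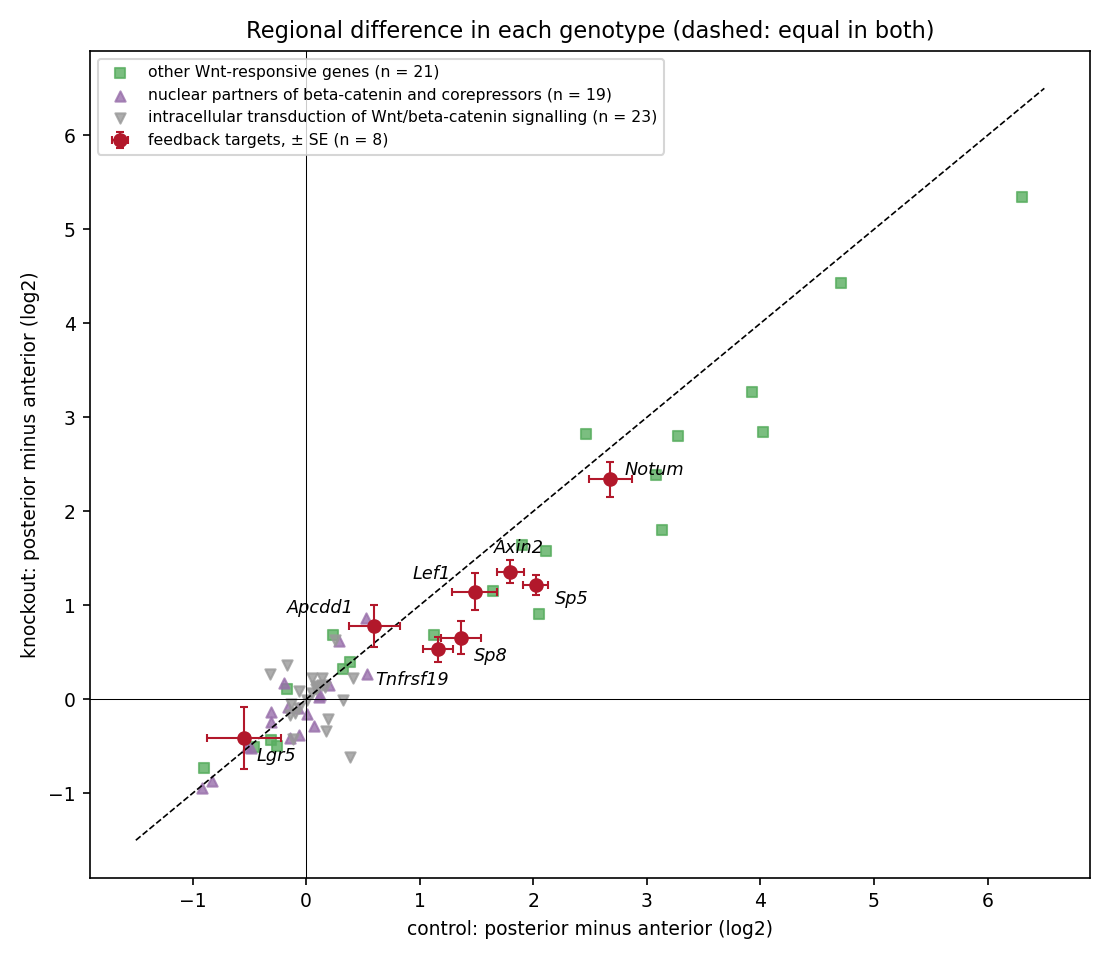
Posterior minus anterior log2 difference in knockout epiblast (vertical axis) against that in control epiblast (horizontal axis) for the 8 feedback targets (red, ± SE) and for tested genes of 3 other lists of the pathway; the dashed line marks equal differences. Sp5, Axin2, Sp8, Tnfrsf19, Lef1 and Notum lie below the line. The 23 genes of intracellular transduction lie between -0.61 and 0.63 in knockout epiblast and between -0.32 and 0.41 in control epiblast.

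Other genes of the pathway were set beside the feedback targets. Of 30 other Wnt-responsive genes 21 were tested, and in anterior epiblast 3 were higher in knockout than in control arrays and none lower: Tbx6 by 1.36 ± 0.17 (SE; limma, adjusted p = 0.0045), Wnt8a by 1.32 ± 0.24 (adjusted p = 0.028) and Dll1 by 1.01 ± 0.16 (adjusted p = 0.015). Over all genes 0.324% were called higher and 0.18% lower in that comparison, and the list was chosen with earlier results of these data known. Tbx6 is a T-box factor of paraxial mesoderm, Wnt8a a Wnt ligand and Dll1 a Notch ligand of presomitic mesoderm. The median anterior difference of these 21 genes was 0.35, against 0.64 for the feedback targets, and none was called between genotypes in the posterior, where none had an unadjusted p under 0.05 either. Between posterior and anterior, 12 of the 21 were higher and 2 lower in knockout epiblast, beside 3.56% and 4.31% of all genes. In control epiblast 13 were higher and 1 lower, beside 2.69% and 2.29% of all genes. Wnt3a and Mixl1, both genes of the primitive streak, had the smallest adjusted p in both genotypes, with Wnt3a higher by 5.34 in knockout and 6.30 in control epiblast and Mixl1 by 4.43 in knockout and 4.71 in control epiblast.

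Genes of the machinery that carries the signal were read in the same comparisons. Of 26 genes of intracellular transduction (Lrp5/6, Dishevelled, Axin1, Apc, Gsk3, beta-catenin and others) 23 were tested, and none was called in any of the 6 comparisons (limma), while 2 had an unadjusted p under 0.05 in the anterior genotype comparison, as did 1009 of the 11124 genes, and 3 between regions in knockout epiblast, as did 2599 of the 11124. Of 22 nuclear partners and corepressors 19 were tested, and none was called between genotypes, with 4 at an unadjusted p under 0.05 in the posterior, where 1104 of the 11124 genes had one, and 2 in the anterior. Between posterior and anterior, 1 of the 19 was higher and 3 lower in knockout epiblast, beside 3.56% and 4.31% of all genes, and 0 were higher and 2 lower in control epiblast, beside 2.69% and 2.29%. Tcf7l1, the TCF factor known mainly as a repressor, was lower in posterior than anterior arrays by -0.87 ± 0.16 in knockout epiblast (SE; limma, adjusted p = 0.0057) and -0.83 ± 0.16 in control epiblast (adjusted p = 0.0082). Tle5, a short relative of the Groucho corepressors, was lower in the posterior by -0.94 in knockout and -0.92 in control epiblast. Tle4 was higher in the posterior by 0.62 ± 0.16 in knockout epiblast (SE; limma, adjusted p = 0.034), and its difference in control epiblast was 0.29 ± 0.16 (adjusted p = 0.41). Tcf7l2 was lower by -0.52 ± 0.14 in knockout epiblast (adjusted p = 0.038), and its difference in control epiblast was -0.48 ± 0.14 (adjusted p = 0.068).

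Across the 12 arrays the members varied together to different degrees. Axin2 correlated with Notum at Pearson r = 0.979 and with Sp5 at r = 0.972, while Lgr5 had negative r with every other member, from -0.60 to -0.16. With the members' mean standardized level, the genes outside the list with the highest r were Dock11 (0.979), Sowahd (0.977), Tbx6 (0.976), Dll1 (0.972) and Rnf213 (0.969). With Axin2 alone they were Wnt5a (0.995), Mcc (0.990), Rnf213 (0.990), Chst7 (0.989) and Scara3 (0.988). These values describe 12 arrays that fall into 4 groups and share 1 normalization, and carry no test.

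Markers of some cell types and regions also differed between the groups. In anterior epiblast the summed level of 10 tested primitive streak and nascent mesoderm markers was 10.94 to 11.42 (log2) in knockout arrays, against 10.34 to 10.81 in control arrays. Of these markers 8 had higher and 2 lower means in knockout arrays, with differences from -0.43 to 1.36. The 6 tested anterior neural plate markers summed to 10.92 to 11.15 in knockout arrays, against 11.87 to 12.16 in control arrays, and all 6 had lower means in knockout arrays. The 7 tested markers of extraembryonic ectoderm and trophoblast summed to 8.68 to 9.36 in anterior knockout arrays, against 9.81 to 10.08 in anterior control arrays, and the 9 epiblast markers to 14.46 to 14.52 in anterior knockout arrays, against 14.74 to 14.92 in anterior control arrays. The visceral endoderm markers summed to 16.20 to 16.35 in anterior knockout arrays, against 16.28 to 16.35 in anterior control arrays, and to 15.96 to 16.13 over the 6 posterior arrays, below every anterior array. In the anterior genotype comparison Lhx5, Pou3f1, Slc7a3, Sox2 and Rhox9 were called lower in knockout arrays and Tbx6 higher (limma). The calls were 2 of 6 anterior neural plate, 2 of 9 epiblast, 1 of 7 extraembryonic and 1 of 10 streak markers. Over all genes 0.18% were called lower and 0.324% higher there. No visceral endoderm or blood and endothelium marker was called in that comparison. In the posterior no feedback target and no marker of these lists was called between genotypes. There the anterior neural plate markers summed to 8.24 to 9.26 in knockout arrays, against 9.89 to 10.16 in control arrays. Of these markers 4 had lower and 2 higher means in knockout arrays, with differences from -2.44 to 0.055. The epiblast markers summed to 14.11 to 14.46 in posterior knockout arrays, against 14.73 to 14.80 in posterior control arrays, and 8 of the 9 had lower means in knockout arrays. The visceral endoderm markers and the 9 tested blood and endothelium markers overlapped between the genotypes in both regions. Between regions the primitive streak markers summed to 12.87 to 13.32 in posterior knockout arrays and 13.14 to 13.23 in posterior control arrays, above every anterior array. Between genotypes in the posterior 6 of the 10 had lower and 4 higher means in knockout arrays, with differences from -1.36 to 0.39. The primitive streak list shares Tbx6, Mixl1, Fgf8 and other genes with the Wnt-responsive list. In such dissected tissue fewer cells of a type and less RNA per cell cannot be told apart, and the part of these markers in the differences of the feedback targets was not tested.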

How the data were processed

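RNA of 12 samples was hybridised to Illumina bead arrays. The authors deposited probe intensities with a detection p-value per probe and array, exported with GenomeStudio per the submitters' processing notes, and a table of normalized log2 values made by a method that the sources used here do not state. That table, with array medians of 6.658 to 6.665, followed the deposited intensities in rank within each array; its centring is unknown and it served as an alternative only. The intensities were background-corrected and quantile-normalized with neqc in limma 3.58.1 under R 4.3.3 (offset 16; negative controls inferred from the detection p-values, 936 implied) and taken to log2. Probes with detection p under 0.05 on at least 3 arrays were kept, 21051 in all. Probes were named through the platform table and RefSeq GRCm38.p6: of 46237 probes 30058 had 1 name and 16179 none or several. The brightest detected probe stood for each of 11124 genes, and a second fit over all detected probes gave every member probe its value. A linear model of 4 group means over all 12 arrays, with empirical Bayes variances and Benjamini-Hochberg adjustment at 0.05, gave 6 comparisons, so adjusted p-values are limma's. A fold is 2 to the power of a log2 difference and understates changes near background. An "at least" fold is given where a probe was undetected on all arrays of 1 group and detected on all of the other. It was taken against the higher of the probe's value and the lowest detected signal. The fit was tested on simulated data. Array precision rests on 3 arrays a group; slide and scan were not stated. The members, the lists and the rule for named genes (all members; at most 4 genes per list and comparison, those with the smallest adjusted p; the 5 genes most correlated with the members' mean and with Axin2) were chosen with earlier results of these data known. Markers are given by summed levels and by the genes called between genotypes within a region. Alternatives changed the background correction, offset, normalization, filter, probe choice, variance model, array weights, samples fitted and replicate block, or left out 1 array.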

Additional observations from a re-analysis of the deposited data

How the results depend on the processing

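The call of Sp5 in anterior epiblast held under every alternative tried, and no called member changed direction under any. Against 2 members called between genotypes in the anterior, 1 was called with median scaling and with all detected probes tested. With the replicate number as a block and with only the groups compared 1 was called as well, and 5 with array weights. Without each array in turn 1 to 2 were called. The number of all genes called moved too. It was 56 in the main fit, 21 with median scaling, 55 with the replicate number as a block, 27 with only the groups compared and 542 with array weights. Averaged over both regions, against 2 called, 1 was called with median scaling and with all probes. With the fixed replicate block and with a random effect for the code of genotype and number it was 1 as well, and 4 with array weights. Without each array 1 to 3 were called. All genes called in the average numbered 57 in the main fit, 9 with median scaling, 61 with the fixed block, 47 with the random effect and 624 with array weights. Median scaling put the median difference of all genes at 0.16 in the posterior (-0.022 otherwise), 0.13 in the average (-0.0042 otherwise) and 0.16 between regions in knockout epiblast (-0.011 otherwise). For the interaction, against 0 called, 1 (Sp5) was called with no background correction, with the deposited normalized values, with trended and robust variances and with array weights. In these settings 4, 4, 12 and 10 of all genes were called, in that order, against 1 in the main fit. Between regions 4 to 7 members were called in knockout and 6 to 7 in control epiblast. All genes called between regions numbered 876 in knockout and 554 in control epiblast in the main fit. They numbered 287 in knockout and 758 in control epiblast with only the groups compared, and 1072 and 1607 with array weights. The sample codes give the anterior and posterior array of a genotype the same number, so both may come from 1 embryo, which the labels do not say. The main fit did not pair the samples. Deviations of same-numbered arrays of 1 genotype across regions correlated from -0.11 to 0.22, and those of differently numbered arrays from -0.26 to 0.17. Of 12 arrays 6 correlated best with their own number. With 3 arrays a group these values cannot decide whether the regions share embryos. If they do, the average over both regions holds fewer independent samples than arrays. The fixed replicate block was the code of genotype and number for comparisons between regions and the number for those between genotypes. It gave 5 calls between regions in knockout and 6 in control epiblast. The random effect was the code throughout, and the averaged Axin2 difference then had an adjusted p of 0.051 (limma).

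Signs turned among uncalled values, and the cause was not tested. In the posterior genotype comparison cyclic loess gave -0.024 for Lef1 and -0.031 for Sp8, array weights -0.081 for Sp8, and median scaling 0.29 for Lgr5; without 1 array Lef1 had -0.066 to 0.21, Sp8 -0.16 to 0.11 and Tnfrsf19 -0.079 to 0.092. Without 1 array Apcdd1 had -0.11 to 0.43 in the anterior. Median scaling gave Lgr5 0.17 between regions in knockout epiblast. For the interaction the mean of a gene's probes gave -0.41 for Apcdd1 and 0.18 for Notum, array weights -0.17 for Apcdd1 and -0.11 for Lgr5, and no background correction and the deposited normalized values 0.031 each for Notum; without 1 array Apcdd1 had -0.12 to 0.42 and Lgr5 -0.25 to 0.37. The averaged and interaction comparisons have no version with only the groups compared, since they use all 4. Signal near background limits Notum in the anterior and the dimmer probes of Notum and Tnfrsf19.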
